A study of Mus musculus with 16 samples.

Results

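Microglia are the resident macrophages of the brain, and 29 genes by which they are recognised were followed through RNA sequencing of cells sorted for the oligodendrocyte antigen O4. The genes were chosen by symbol, all 29 were found among the 32207 genes of the deposited table, and all 29 were among the 16339 genes that passed the filter on low counts. Their sum varied 3.85-fold between libraries, and most of the genes moved up and down together. Sall1 and Slc2a5 followed the rest least, and Cd68, Fcrls and Fcer1g followed only in part. No member passed the test for bisphenol A (BPA) against control, in either sex or over both.

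The cells were sorted on magnetic beads from dissociated brains of OF-1 mice, an outbred strain, at postnatal day 16, and each library is 1 mouse. There were 4 libraries of male BPA mice, 4 of female BPA mice, 4 of male controls and 4 of female controls. BPA mice were exposed before birth from gestational day 7, and then through lactation, by way of the water their mothers drank, at a labelled dose of 40 µg/kg/day, and the labels give no agent for controls. Litter and batch are not labelled. As the mothers received the BPA, littermates share their exposure, so p-values for BPA may be too small. The p-values set a difference between groups against the spread between these libraries within groups.

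Microglia enter the brain from the yolk sac in the embryo, depend on signalling through the receptor encoded by Csf1r, and take up cell debris and excess myelin as white matter forms. They tag material with C1q, the first component of complement, sense nucleotides released by other cells through P2Y receptors, and carry the TREM2 receptor with its adaptor TYROBP. O4 antibodies bind sulfated lipids on oligodendrocytes and their late precursors, and are not a label of microglia. BPA is a plasticiser that can bind estrogen receptors.

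Total counts ran from 23603816 to 42575326 per library, at which a gene with no counts could still reach between 0.0707 and 0.127 CPM (3 counts, counting error alone). CPM are read counts scaled to a common library total. Summed over the 29 genes, the level was 1661, 1860.3, 1879 and 1044 CPM in male BPA libraries 1 to 4 and 3224, 1464, 1489 and 1736 CPM in female BPA libraries. Male controls had 837, 2019.8, 1353 and 939 CPM and female controls 2603, 2333, 1185 and 1497 CPM. The groups overlapped throughout: the lowest library was a male control and the highest a BPA female, female BPA 1. In bulk RNA, fewer cells of a type and less RNA per cell cannot be told apart, so none of these levels is a number of cells.

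To set the genes side by side, the authors' deposited values, normalized counts divided by median transcript length in kilobases, were used. On this per-length scale Laptm5, a lysosomal membrane protein of blood-derived cells, led with a mean of 8555 ± 3301 (SD, n = 16 libraries). Csf1r followed at 6862 ± 2722 and Selplg, a selectin ligand of leukocytes, at 4473 ± 2258. The SDs overlap, but they hold the level that the genes share: within each of the 16 libraries Laptm5 lay above Csf1r and Csf1r above Selplg. Ptprc, the leukocyte phosphatase CD45, was lowest at 108 ± 37.9, next to Itgam, an integrin subunit, at 183 ± 93.2. For scale, Mbp, which encodes myelin basic protein, averaged 335501 in the same unit. Per length, the mean of every member thus lay far below this myelin gene.

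Other cells that could stand behind such genes were checked by lists of their own. Monocyte and neutrophil genes were close to absent: 2 of 11 passed the filter, the sum ran from 0.569 to 2.65 CPM, and Mmp8, Retnlg and Chil3 had no counts in most libraries. Of 10 lymphocyte genes, 1 of which was not matched, 4 passed, all of B cells, with a sum of 1.07 to 2.84 CPM. Border-associated macrophages, which live in the meninges and around vessels, were present by all 9 of their genes, with a sum of 108 to 227 CPM and none of the 9 at 0 in any library. Of these, Mrc1, a mannose receptor, was at 41.98 to 89.7 CPM.

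**Figure D1:**
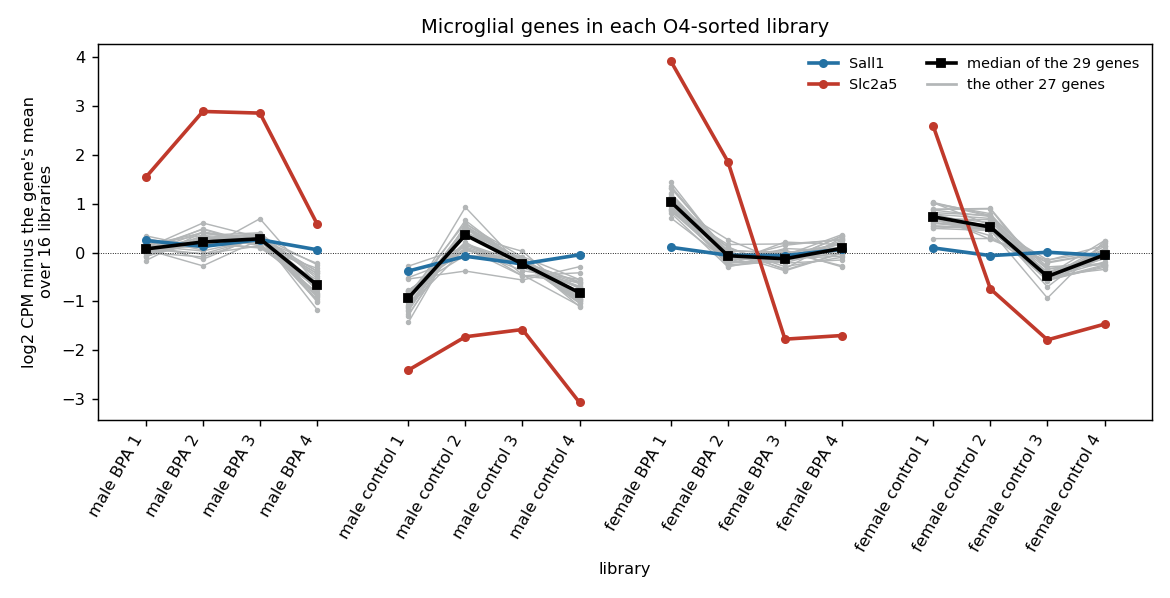
Each line is 1 gene, drawn within its group of 4 libraries (x axis), as log2 CPM minus that gene's mean over the 16 libraries (y axis). Grey lines are 27 genes, black squares the median of all 29, which runs from -0.93 in male control 1 to 1.04 in female BPA 1. Sall1 (blue) stays near 0 and Slc2a5 (red) leaves the bundle in both directions.

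The shift that the genes share was measured as the median over the 29 of log2 CPM minus each gene's mean over the 16 libraries. It stood at 0.07, 0.22, 0.28 and -0.66 in male BPA libraries 1 to 4 and 1.04, -0.06, -0.13 and 0.09 in female BPA libraries. Male controls were at -0.93, 0.36, -0.23 and -0.82 and female controls at 0.73, 0.52, -0.49 and -0.05. Each group held libraries above and below 0, and the lowest 3 were male controls 1 and 4 and male BPA 4. Group means were -0.02 ± 0.44 in BPA males and -0.41 ± 0.59 in control males (SD, n = 4 each). In females they were 0.23 ± 0.54 with BPA and 0.18 ± 0.55 without. The differences, 0.38 in males and 0.05 in females, were smaller than the SD within groups. Leaving out 1 library moved the male difference between 0.21, without male control 1, and 0.64, without male control 2. It was 0.26 without male control 4 and 0.60 without male BPA 4. The female difference was -0.22 without female BPA 1, -0.17 without female control 3, just below 0 without female control 4 and 0.25 without female control 1.

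How closely each gene keeps step with this shared level was read from the spread left once the median of the other 28 genes is taken away. The subtraction takes every gene to move by as much as that median. A gene that follows by smaller or larger steps therefore keeps spread as well. The median SD over libraries was 0.58 before and 0.18 after, in log2 units, and the SD fell for 28 of the 29 genes. A first principal component held 79.7% of the variance of the 29 genes, and 92.9% of that of the 27 without Sall1 and Slc2a5. The closest followers were Ctss, a lysosomal protease (SD 0.58 before and 0.10 after), C1qa (0.50 and 0.10) and Cd53, a tetraspanin of leukocytes (0.60 and 0.11). At the other end stood Slc2a5 (2.204 and 1.90), Sall1 (0.16 and 0.49) and Fcrls, an Fc receptor-like protein (0.44 and 0.32). Sall1 was the 1 gene whose spread grew.

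**Figure D2:**
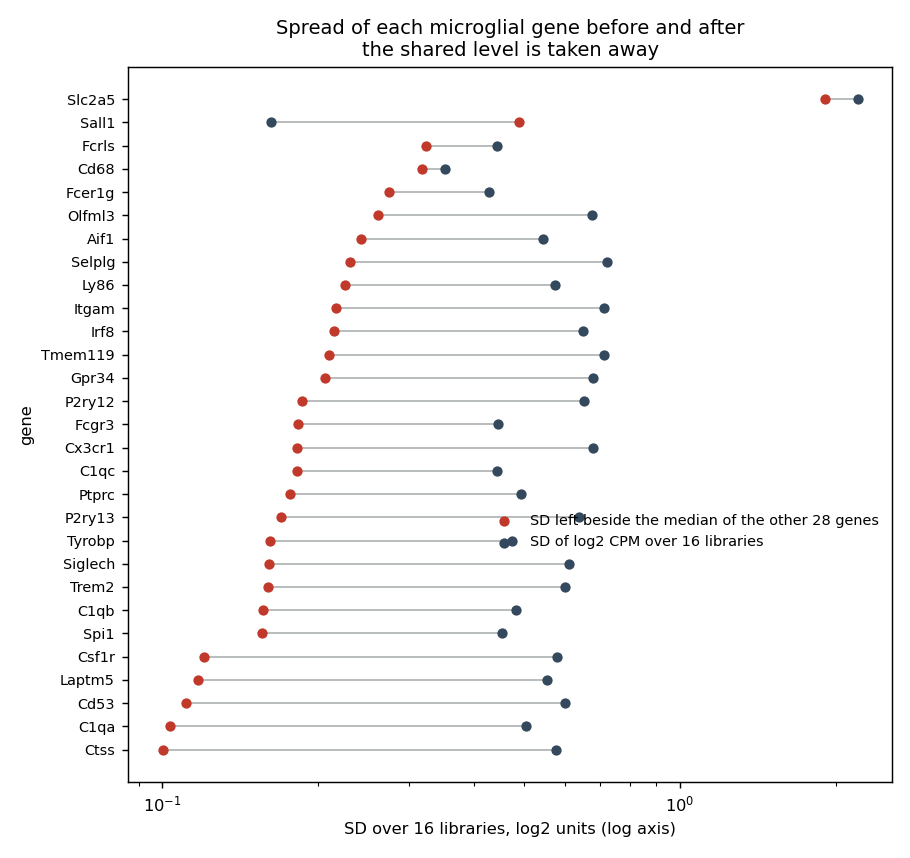
Dark points are the SD of each gene's log2 CPM over 16 libraries and red points the SD left beside the median of the other 28 genes, on a logarithmic x axis. Red lies left of dark for 28 of 29 genes; Sall1 is the exception, and Slc2a5 keeps an SD of 1.90.

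C1qa, C1qb and C1qc are neighbours on chromosome 4 and encode the 3 chains of the C1q recognition molecule. C1qa had 127, 127, 140.1 and 86.3 CPM in male BPA libraries 1 to 4, against 65.2, 132, 95.3 and 65.7 CPM in male controls. The 4 BPA females had 240.0, 105, 112 and 124 CPM, against 186, 159, 81.7 and 123 CPM in the 4 control females. The highest library was female BPA 1 and the lowest male control 1, and BPA and control values overlapped in each sex. Per unit of length, the C1qa to C1qb ratio averaged 1.75 ± 0.15 in BPA and 1.76 ± 0.08 in control libraries (SD, n = 8 each). The C1qc to C1qb ratio averaged 1.23 ± 0.06 in BPA and 1.24 ± 0.07 in control libraries. Over the same libraries C1qa itself ranged 3.68-fold, so the 3 chains kept nearly the same proportion while their level varied.

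Among the surface receptors, Csf1r, the receptor for CSF1 and IL-34 on which microglia depend, gave the highest CPM. In males, Csf1r stood at 271, 325, 290.3 and 165 CPM in BPA libraries 1 to 4, against 125, 365, 224 and 146 CPM in controls. Among females, BPA libraries had 547, 216, 235 and 329 CPM and controls 432, 382, 199 and 253 CPM. Its range was 4.39-fold, and within each sex some controls lay above some BPA libraries. Cx3cr1, the receptor for the neuronal chemokine fractalkine, ran in parallel. Cx3cr1 had 126, 174, 139.5 and 70.5 CPM in male BPA libraries 1 to 4, against 50.8, 182, 109.7 and 63.1 CPM in male controls. Its female values were 285, 112, 114 and 135 CPM with BPA, against 227, 207, 88.2 and 114 CPM in controls. Female BPA 1 was again highest and male control 1 lowest, and the groups overlapped in each sex.

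P2ry12, the ADP receptor by which microglia steer their processes, behaved likewise. In males, P2ry12 stood at 143, 174, 184 and 82.3 CPM in BPA libraries 1 to 4, against 75.7, 236, 127 and 77.9 CPM in controls. In females it stood at 315, 147, 134 and 159 CPM in BPA libraries, against 277, 280.2, 107 and 118 CPM in controls. Female BPA 1 was highest and male control 1 lowest, as for Csf1r. Tmem119, a membrane protein used to tell microglia from other macrophages, had one of the widest ranges of the bundle, 5.91-fold. Tmem119 had 58.01, 76.6, 61.2 and 30.6 CPM in male BPA libraries 1 to 4, against 24.04, 78.8, 48.6 and 27.1 CPM in male controls. The 4 BPA females had 142, 52.8, 49.6 and 54.9 CPM, against 111, 92.03, 37.6 and 44.7 CPM in the 4 control females. The other female BPA libraries lay within 49.6 to 54.9 CPM, inside the range of female controls. P2ry13, Gpr34, Siglech and Olfml3, also used as homeostatic markers of microglia, ranged from 4.07-fold for Siglech to 4.78-fold for P2ry13.

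Of the lysosomal and endosomal genes, Ctss and Laptm5 followed the shared level closely, with 3.03% and 4.49% of their variance left beside the median of the other genes. Ly86 had 15.5% left and Cd68 81.6%. In males, Ctss stood at 88.3, 102, 110.0 and 54.9 CPM in BPA libraries 1 to 4, against 45.2, 110.3, 87.5 and 44.2 CPM in controls. Among females, BPA libraries had 192, 80.1, 79.8 and 87.9 CPM and controls 143, 119.6, 57.8 and 80.97 CPM. The groups overlapped, and male control 2, at 110.3 CPM, stood as high as male BPA 3. Laptm5 had 94.9, 102, 94.7 and 54.4 CPM in male BPA libraries 1 to 4, against 43.9, 127, 79.1 and 53.04 CPM in male controls. Its female values were 178, 74.3, 78.2 and 101 CPM with BPA, against 147, 135, 69.6 and 81.9 CPM in controls. Here male control 2 lay above all 4 male BPA libraries. Cd53, of the leukocyte surface, had 3.44% of its variance left. In males, Cd53 stood at 19.2, 21.9, 24.6 and 10.5 CPM in BPA libraries 1 to 4, against 9.91, 25.8, 17.7 and 10.01 CPM in controls. In females it stood at 42.6, 18.5, 19.3 and 20.8 CPM in BPA libraries, against 31.2, 30.7, 13.8 and 17.9 CPM in controls. Female BPA 1 was highest and male control 1 lowest, with overlap in each sex.

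Adaptors and receptors of the TREM2 pathway moved with the rest. Trem2, a lipid-sensing receptor, averaged 21.3 ± 7.60 CPM in BPA and 21.5 ± 11.1 CPM in control libraries (SD, n = 8 each), and Tyrobp, its adaptor, 26.4 ± 8.54 CPM with BPA and 22.6 ± 8.48 CPM in controls. Spi1, which encodes PU.1, the factor that sets up the myeloid lineage, averaged 12.2 ± 3.93 CPM with BPA and 10.6 ± 3.62 CPM in controls, and Irf8, its partner in macrophage gene control, 10.2 ± 5.04 CPM with BPA and 9.15 ± 4.11 CPM in controls. In each of these 4 pairs the difference was smaller than either SD. Further members are given by their mean ± SD over the 8 BPA and the 8 control libraries. Aif1, the calcium-binding protein IBA1, averaged 8.36 ± 3.27 CPM in BPA and 6.87 ± 2.68 CPM in control libraries. Fcgr3, a receptor for immunoglobulin G, averaged 20.9 ± 6.02 CPM in BPA and 17.7 ± 6.26 CPM in control libraries. Fcer1g, the signalling chain of several Fc receptors, averaged 14.6 ± 3.71 CPM in BPA and 13.7 ± 4.62 CPM in control libraries. Cd68 averaged 32.3 ± 9.39 CPM with BPA and 28.5 ± 6.14 CPM in controls, Siglech, a sialic acid-binding lectin, 21.8 ± 8.88 CPM with BPA and 20.1 ± 8.95 CPM in controls, and Ly86, a partner of a Toll-like receptor homologue, 15.7 ± 5.77 CPM with BPA and 12.9 ± 5.30 CPM in controls. None of these differences exceeded the SD within either exposure.

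Of the 29 genes, Itgam shares 66.3% of its 50-base transcript words with an overlapping gene model, Csf1r 14.3% with its neighbour on the other strand and Fcgr3 9.58% with its paralog Fcgr2b, so their counts are less certain; the Csf1r overlap is on the opposite strand of a stranded library.

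The members were then set against 29 other myeloid genes, none of them a member, such as Ikzf1, a haematopoietic transcription factor. The mean level of this second list was 0.01, 0.36, 0.12 and -0.62 in male BPA libraries and 1.09, -0.12, -0.18 and 0.27 in female BPA libraries, in log2 units from each gene's mean. Male controls were at -0.97, 0.31, -0.18 and -0.75 and female controls at 0.63, 0.51, -0.39 and -0.07. As for the members, female BPA 1 was highest and male control 1 lowest. Regressed on that level over the 16 libraries, as a description, 23 of the 29 members had a slope above 0.8 log2 units per unit. Tmem119 and Itgam, at 1.31, and Selplg, at 1.30, were the steepest after Slc2a5 (2.56). Cd68, a lysosomal glycoprotein found in all macrophages, had 0.55, Fcrls and Fcer1g, an Fc receptor subunit, 0.66 each, and Sall1 0.15.

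**Figure D3:**
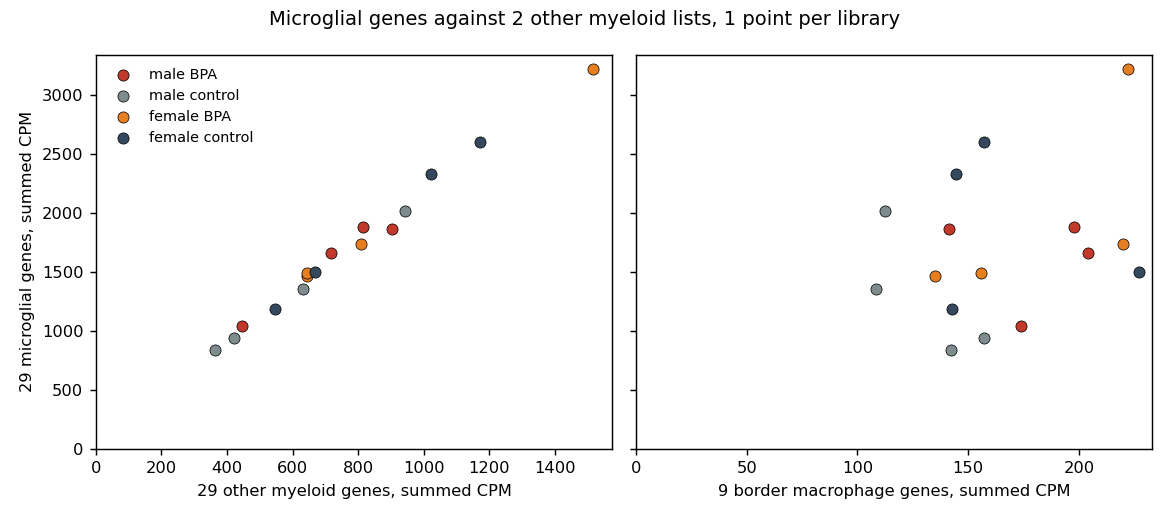
Each point is 1 library, coloured by group, with the summed CPM of the 29 microglial genes on both y axes. On the left they rise together with 29 other myeloid genes (364 to 1517 CPM); on the right the 9 border macrophage genes (108 to 227 CPM) show another order of libraries.

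Border macrophage genes put the libraries in another order. Their sum was 204, 141, 198 and 174 CPM in male BPA libraries and 222, 135, 156 and 220.0 CPM in female BPA libraries, against 142, 112, 108 and 157 CPM in male controls and 157, 145, 143 and 227 CPM in female controls. Male control 2, among the highest 4 for the microglial genes, was second lowest here, and female control 4, in the middle for the microglial genes, was highest. In a description with both levels together, 6 members had a slope above 0.3 on the border macrophage level: Slc2a5, Cd68, Fcrls, Aif1, Ly86 and Fcer1g. The slopes lay on both sides of 0, with a median of 0.02, and were lowest for P2ry12 and Gpr34, at -0.31 and -0.30. For Cd68 the 2 levels together accounted for 82.4% of the variance, against 70.97% for the second myeloid list alone, and for Csf1r 98.6% either way. The 16 libraries are shared by all of these values, and no test was made of them.

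Where genes move together their start regions can be read for shared letters. RefSeq promoters, from 250 bases before to 50 after the gene start on GRCm38.p6, were found for 22 of the 29 genes, 27 promoters in all. The motif searched was GAGGAAGT, the core to which PU.1 binds, on both strands. It lies in the promoters of Ctss, Cd53 and C1qc, which are 3 of 27, and in 3.20% of all 32851 promoters. A shorter form, GAGGAAG, which the longer one contains, lies in 10 of the 27, of 9 genes, and in 13.6% of all. The 3 with the longer form are printed on the gene's strand, and the capitals are ACTTCCTC, its reverse complement. Slc2a5, which left the bundle, is printed beside them and holds none, and neither do the 3 promoters of Sall1. Promoters of genes that followed the shared level, such as Laptm5, Cx3cr1 and Trem2, do not hold the longer form either. Absence of the longer form thus does not set Slc2a5 or Sall1 apart. The shorter form lies in promoters of Laptm5 and Trem2, and in none of Cx3cr1, Slc2a5 or Sall1. The capitals begin 2 bases before the start in Ctss, at base 7 after it in Cd53 and 195 bases before it in C1qc.
Ctss, chr3:95526536-95526835, plus strand: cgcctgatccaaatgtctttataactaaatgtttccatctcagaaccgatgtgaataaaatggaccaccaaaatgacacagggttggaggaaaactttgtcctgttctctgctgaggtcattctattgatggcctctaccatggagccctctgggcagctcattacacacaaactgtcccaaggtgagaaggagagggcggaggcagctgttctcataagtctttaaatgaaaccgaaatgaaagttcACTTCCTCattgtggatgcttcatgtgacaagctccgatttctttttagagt
Cd53, chr3:106790100-106790399, minus strand: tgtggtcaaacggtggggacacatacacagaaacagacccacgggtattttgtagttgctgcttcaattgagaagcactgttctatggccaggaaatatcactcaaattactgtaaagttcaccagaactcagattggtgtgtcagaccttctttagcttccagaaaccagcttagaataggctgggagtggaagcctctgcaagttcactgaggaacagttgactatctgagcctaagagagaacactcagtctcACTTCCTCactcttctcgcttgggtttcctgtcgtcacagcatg
C1qc, chr4:136892865-136893164, minus strand: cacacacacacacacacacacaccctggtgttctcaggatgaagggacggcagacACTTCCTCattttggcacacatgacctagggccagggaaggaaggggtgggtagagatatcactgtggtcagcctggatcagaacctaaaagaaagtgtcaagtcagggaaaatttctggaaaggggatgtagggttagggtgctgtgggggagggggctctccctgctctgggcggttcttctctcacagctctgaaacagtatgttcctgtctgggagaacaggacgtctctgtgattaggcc
Slc2a5, chr4:150119094-150119393, plus strand: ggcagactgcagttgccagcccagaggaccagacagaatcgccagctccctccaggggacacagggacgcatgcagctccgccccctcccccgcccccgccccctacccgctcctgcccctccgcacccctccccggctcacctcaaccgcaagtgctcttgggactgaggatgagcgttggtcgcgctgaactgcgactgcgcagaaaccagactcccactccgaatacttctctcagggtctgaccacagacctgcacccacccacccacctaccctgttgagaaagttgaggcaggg
A match describes letters in these windows, and no binding was measured here.

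BPA was compared with control over both sexes in 1 limma-voom fit of all 16339 genes. Of these, 3 were called at an adjusted p under 0.05 (0.0184%), and 0 of the 29 microglial genes; 2 members, Sall1 and Slc2a5, had an unadjusted p under 0.05, against 7.69% of all genes. BPA and control libraries overlapped for every member, where 0.0306% of all genes lay higher in every BPA library and 0.0551% lower. All 29 log2 fold changes were above 0, against 51.2% of all genes, with a median of 0.24 over the members and 0.00 over all genes tested. These are not 29 separate signs: a single component held 92.9% of the variance of 27 of the genes, as given above. For Csf1r the log2 fold change was 0.20 ± 0.26 (SE; 95% interval -0.35 to 0.75, limma-voom adjusted p 0.913), for C1qa 0.26 ± 0.21 (limma-voom adjusted p 0.836) and for Fcrls 0.23 ± 0.15 (limma-voom adjusted p 0.803). Without female BPA 1 the median of the members was 0.09 with 25 of 29 above 0, without female control 3 it was 0.15 and without male control 1 0.15. Without both female BPA 1 and male BPA 2, the library with the highest astrocyte and mural cell sums, it was 0.06 with 21 of 29 above 0.

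In males alone, 1 of 16339 genes was called (0.00612%) and 0 members, and an unadjusted p under 0.05 was found for 2 members, Sall1 and Slc2a5, against 7.96% of all genes. All 29 members were above 0, against 52.5% of all genes, with a median of 0.40. That median was 0.25 without male control 1, and 0.62 without male control 2 or without male BPA 4. Csf1r had 0.37 ± 0.36 and C1qa 0.46 ± 0.30 (limma-voom adjusted p 0.858 and 0.769), and Csf1r ranged from 0.15 without male control 1 to 0.67 without male control 2. For Sall1 and Slc2a5 every BPA male lay above every control male, which held for 1.62% of all genes, while the reverse held for 2.83% and for no member; the other 27 members overlapped. In females 0 genes were called (0%) by limma-voom, and 744 genes (4.55%), none of them a member, had an unadjusted p under 0.05. Every member overlapped between the female groups, where 1.27% of all genes lay higher in every BPA female and 2.06% lower. There 23 of 29 members were above 0, against 50.6% of all genes, with a median of 0.06. That count was 0 without female BPA 1, with a median of -0.21, then 4 without female control 3 and 15 without female control 4. The difference of the BPA effects, females minus males, was called for 0 genes (0%) and had an unadjusted p under 0.05 for 772 genes (4.72%), of which 1, Sall1, is a member. It was below 0 for all 29 members, where 46.3% of all genes were above 0.

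Border macrophage genes were also higher on average with BPA. All 9 were above 0 over both sexes, against 51.2% of all genes, with a median log2 fold change of 0.25, and 0 of the 9 were called. The median in males was 0.49. Their mean level was 0.50 log2 units higher with BPA in males and 0.13 higher in females. Lyve1, a hyaluronan receptor, stood at 22.3, 14.2, 20.4 and 16.9 CPM in BPA males, against 11.6, 11.4, 9.03 and 11.3 CPM in control males, with no overlap. Cd163, a haemoglobin scavenger receptor, stood at 18.4, 16.98, 17.3 and 17.1 CPM in BPA males, against 10.4, 12.6, 12.7 and 14.5 CPM in control males, again with no overlap. Of all genes, 1.62% lay higher in every BPA male. The sum of the 9 genes did overlap between the male groups. Male BPA 2, at 141 CPM, lay below male controls 1 and 4, at 142 and 157 CPM. The 9 genes share their libraries, so they are not 9 separate signs. Mural cell and fibroblast genes, 8 of 8 tested above 0 with a median of 0.44, were summed at 43.7, 115, 45.7 and 38.01 CPM in BPA males, against 42.1, 41.8, 23.2 and 41.6 CPM in control males, the highest being male BPA 2. Of the oligodendrocyte precursor genes, 0 of 10 were above 0 in males, against 52.5% of all genes, with a median of -0.38. In females 9 of 10 were, against 50.6%, with a median of 0.16. The difference of the BPA effects, females minus males, was above 0 for all 10, against 46.3% of all genes, with a median of 0.55. Limma-voom called 0 of the 10 in each of these comparisons. An unadjusted p under 0.05 was found for 3, 0 and 6 of them, against 7.96%, 4.55% and 4.72% of all genes. These genes share their libraries too. Their mean level was 0.20, 0.64, -0.06 and -0.38 in BPA females, against -0.29, -0.07, 0.06 and 0.02 in control females. The part of these cell types in the values of the microglial genes was not tested beyond the fits given here.

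The comparison over both sexes was repeated with the level of the second myeloid list as a covariate, so that what a member shares with other myeloid genes is set aside. Beside it, 14 of the 29 log2 fold changes were above 0, against 49.5% of all genes, and the median was -0.01. The SE fell for all 29, with a median of 0.26 without the covariate and 0.08 beside it, and the size of the log2 fold change fell for 26. For Csf1r the value was -0.04 ± 0.04 and its 95% interval -0.13 to 0.05. Of all genes 0 (0%) were called by limma-voom, and 1184 (7.25%) had an unadjusted p under 0.05, among them 4 members. These were Sall1 at 0.16 ± 0.05, Slc2a5 at 2.11 ± 0.72, Laptm5 at -0.12 ± 0.04 and Trem2 at -0.19 ± 0.08. Their limma-voom adjusted p-values were 0.440, 0.551, 0.590 and 0.666. Border macrophage genes had a median of 0.25 in this fit, with 9 of 9 above 0.

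Beside the second list, 16 of 29 members were above 0 in males, against 51.1% of all genes, and 11 of 29 in females, against 49.1%. An unadjusted p under 0.05 was found in males for Sall1, at 0.32 ± 0.07, and Slc2a5, at 3.37 ± 1.11, against 7.36% of all genes (limma-voom adjusted p 0.378 and 0.539). In females it was found for Trem2, at -0.29 ± 0.11, against 4.73% of all genes (limma-voom adjusted p 0.999). For the difference of the BPA effects, females minus males, 5 of 29 members were above 0, against 47.3% of all genes, and 1, Sall1 at -0.31 ± 0.10, had an unadjusted p under 0.05, against 5.15% (limma-voom adjusted p 0.929). The limma-voom calls in these 3 comparisons were 0 genes each (0%).

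**Figure D4:**
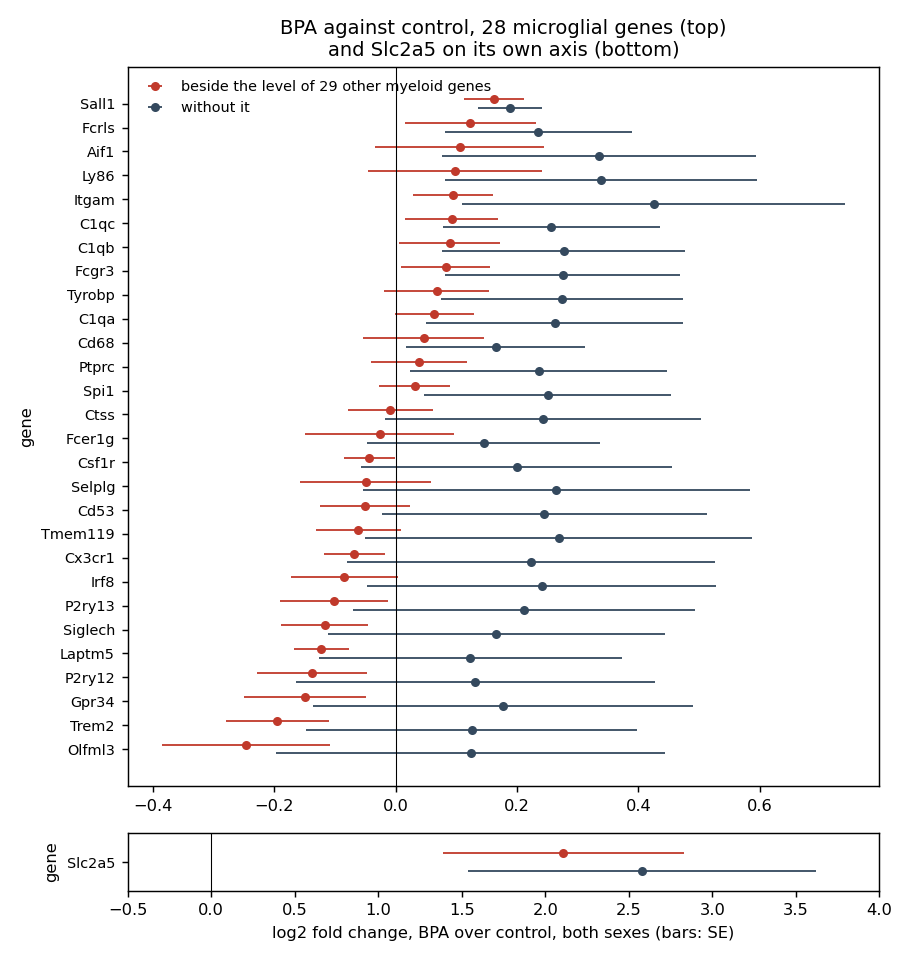
Points are log2 fold changes of BPA over control over both sexes with SE bars, in red beside the level of 29 other myeloid genes and in dark without it. Dark points all lie above 0; red points lie on both sides of it with shorter bars, and Slc2a5, on an axis of its own, stays at 2.11.

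Sall1 encodes a zinc finger factor that holds microglia in their identity in the adult brain and is also active in neural progenitors of the embryo. Sall1 had 144, 132, 145 and 126 CPM in male BPA libraries 1 to 4, against 93.1, 115, 103 and 117 CPM in male controls. The 4 BPA females had 130.3, 116, 116 and 127 CPM, against 129, 116, 121 and 116 CPM in the 4 control females. The 4 BPA males lay above the 4 control males, with no overlap, while the female groups overlapped. Its whole range over the 16 libraries was 1.56-fold, against 4.39-fold for Csf1r. Per length, the Sall1 to Csf1r ratio was lowest in female BPA 1, at 0.0636, the library with the highest sum of microglial genes, and highest in male control 4, at 0.214, which had the second lowest sum. The log2 fold change was 0.19 ± 0.05 over both sexes, 0.36 ± 0.08 in males and 0.02 ± 0.08 in females, and the difference between the sexes was -0.34 ± 0.11. The limma-voom adjusted p-values were 0.327, 0.247, 0.999 and 0.999. Over the alternatives run, the value over both sexes stayed between 0.16 and 0.22.

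Slc2a5 encodes GLUT5, a fructose transporter that in the brain is found mainly on microglia. In males, Slc2a5 stood at 7.18, 18.2, 17.8 and 3.72 CPM in BPA libraries 1 to 4, against 0.467, 0.749, 0.830 and 0.295 CPM in controls. Among females, BPA libraries had 37.3, 8.97, 0.724 and 0.762 CPM and controls 14.8, 1.48, 0.717 and 0.896 CPM. In males the groups did not overlap: the lowest BPA male had 3.72 CPM and the highest control male 0.830 CPM. In females 2 BPA libraries and 1 control were high and the other 5 were between 0.717 and 1.48 CPM. The high libraries were thus 6 of 8 with BPA and 1 of 8 without, all above 3 CPM. By the shared microglial level they held ranks 1, 2, 5, 6, 8, 10 and 14 of the 16 libraries, with female BPA 1 and female control 1 at ranks 1 and 2. Some libraries departed from that order: male control 2, at 365 CPM of Csf1r, had 0.749 CPM of Slc2a5, and male BPA 4, at 165 CPM of Csf1r, had 3.72 CPM. Fold changes were 2.58 ± 1.04 over both sexes, 4.13 ± 1.65 in males and 1.03 ± 1.27 in females, on the log2 scale (limma-voom adjusted p 0.551, 0.544 and 0.999). In females the value was -0.12 without female BPA 1.

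The next gene on chromosome 4, Gpr157, which encodes an orphan receptor and lies on the same strand upstream of Slc2a5, shared this pattern at a low level. Gpr157 had 1.60, 2.32, 2.35 and 1.47 CPM in male BPA libraries 1 to 4, against 0.714, 0.512, 0.797 and 0.767 CPM in male controls. Its female values were 2.66, 1.49, 0.574 and 0.720 CPM with BPA, against 2.09, 1.08, 0.667 and 1.23 CPM in controls. The 7 libraries with more than 3 CPM of Slc2a5 were also the 7 highest for Gpr157, and the male groups did not overlap. Its log2 fold change was 0.70 ± 0.31 over both sexes and 1.42 ± 0.45 in males (limma-voom adjusted p 0.606 and 0.444). Of the other neighbours tested, H6pd, Spsb1, Slc25a33, Tmem201, Eno1, Rere and Slc45a1, none had a log2 fold change beyond 0.16 either way in males or over both sexes. Gpr157 is no member and was looked at after the Slc2a5 values were seen.

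**Figure D5:**
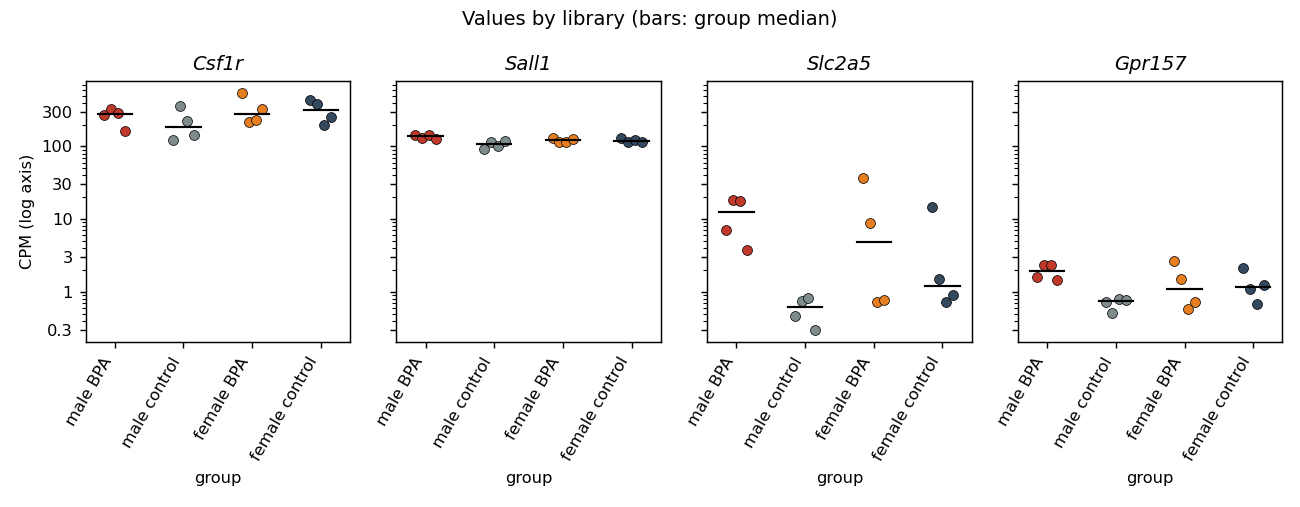
Each point is 1 library and each bar a group median, on 1 logarithmic CPM axis for all 4 genes, with BPA left of control in each sex. Csf1r spreads in every group, Sall1 stays between 93.1 and 145.3 CPM, and Slc2a5 and Gpr157 are higher in all 4 BPA males than in all 4 control males.

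Females were also compared with males over both exposures. All 29 members were above 0, against 48.9% of all genes, with a median log2 fold change of 0.45. As for BPA, these are not 29 separate signs. Without female BPA 1 the median was 0.33, with 27 of 29 above 0. Of 16339 genes, 11 were called (0.0673%, with 0.0306% higher in females), and 0 members. An unadjusted p under 0.05 was found for 6 members, against 4.35% of all genes: Fcrls at 0.58 ± 0.15, Tyrobp at 0.48 ± 0.20, Ptprc at 0.47 ± 0.21, C1qc at 0.43 ± 0.18, C1qb at 0.43 ± 0.20 and Cd68 at 0.36 ± 0.15. The limma-voom adjusted p was 0.912 for Fcrls and 0.999 for the other 5. Fcrls had 110.2, 67.02, 67.6 and 71.5 CPM in BPA females, against 62.6, 58.7, 65.6 and 36.4 CPM in BPA males. Control females had 101, 72.02, 52.2 and 59.8 CPM, against 41.1, 46.01, 40.5 and 48.9 CPM in control males. Female BPA 1 was highest and male BPA 4 lowest. Over both exposures the sexes overlapped, as they did for all 29 members, where 0.049% of all genes lay higher in every female and 0.0367% lower. The shared level averaged 0.23 ± 0.54 in BPA females and -0.02 ± 0.44 in BPA males, and 0.18 ± 0.55 in control females and -0.41 ± 0.59 in control males (SD, n = 4 each). Between the sexes that level differed by 0.42, less than the SD of 0.53 within groups. The second myeloid list was above 0 for 29 of 29 with a median of 0.46, while border macrophage genes had a median of 0.11.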

How the data were processed

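RNA of O4-sorted cells was sequenced in 16 libraries. The tools named in the submitters' processing notes are DESeq2 1.16.1, HTSeq 0.6.1p1, STAR 2.5.3a and bcl2fastq 2.20.0.422, with mm39 as the build, and per the labels the libraries were stranded and poly(A)-selected. The deposited table gives raw counts and, by the authors, normalized counts per kilobase of median transcript length; 16 further per-sample columns were not used. Genes were filtered (minimum count 10, minimum total 15), which kept 16339 genes with 99.947% of counts, and scaled by TMM. One limma-voom fit (limma 3.58.1, R 4.3.3) had a coefficient for each group of sex and exposure. It gave two-sided tests, Benjamini-Hochberg adjusted over all genes, threshold 0.05. The fit took the place of the quasi-likelihood count test first planned. It was also run on simulated counts, in which all genes had the same spread between replicates and no library stood apart as male BPA 2 does. That setting is simpler than these data. CPM on the log2 scale carry a prior count of 2. Replicate numbers did not pair the libraries. The lowest chi-square per gene between libraries of a group was 16.6, so none was a duplicate. The highest were those of male BPA 2, at 90.0, 108 and 135 against the other BPA males, and no other pair was above 33.4. The 29 genes, the other lists and the rule for named genes (values in every library for 6 markers, and for members with the smallest p or the smallest or largest spread left) were chosen with earlier results of these data known. Floors cover counting error only, and limma-voom intervals the spread between libraries.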

Additional observations from a re-analysis of the deposited data

Results flagged for a closer look

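Within groups of 4 libraries, 1 library stood far from the other 3 in 16 of 120 cases, where chance gives about 1 in 20; the genes share their libraries, so the cases are not independent. Of the 16, 14 were female BPA 1, the library with the highest sum of microglial genes. There C1qa was at 240.05 CPM (others 105.1 to 124.03), Cx3cr1 at 285 CPM (112 to 135), P2ry12 at 315 CPM (134 to 159), Tmem119 at 142 CPM (49.6 to 54.9) and Ctss at 192 CPM (79.8 to 87.9). Trem2 was at 38.02 CPM (17.02 to 19.5), Tyrobp at 45.97 CPM (23.0 to 26.2), Aif1 at 15.5 CPM (5.80 to 7.36), Itgam at 45.3 CPM (15.6 to 19.3) and Fcrls at 110.2 CPM (67.0 to 71.5). Gpr34 was at 81.6 CPM (32.2 to 34.3), Selplg at 162 CPM (53.4 to 65.6), Cd53 at 42.6 CPM (18.5 to 20.8) and Irf8 at 22.004 CPM (6.79 to 8.73). Laptm5 was low in male BPA 4, at 54.4 CPM (others 94.7 to 102). Slc2a5 was high in female control 1, at 14.8 CPM (others 0.717 to 1.48). No member had a called difference between the BPA effects of the sexes.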

How the results depend on the processing

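Of 1829 values under alternatives, 1756 counted as the same, 47 as moved and 26 as reversed. Values of single genes counted as the same if they kept direction and side of the threshold, and numbers of genes if they stayed within a fixed ratio. Medians and shared levels did so within 0.53 log2 units, the SD within groups, even where their sign turned. Those of the main fit were themselves smaller than that, so the tally says little about them. Under every alternative, 0 members were called. Genes called for BPA over both sexes were 3, but 0 under the stricter filter on counts, 0 with a replicate block, 0 when female BPA 1 and male BPA 2 were both left out, and 0 to 5 on leaving out 1 library. In males they were 1, but 2 with no filter, 4 in the males alone, 3 with limma-trend, 0 with the stricter filter or without both those libraries, and 0 to 3 on leaving out 1. In females they were 0, but 2 with no filter and 1 in the females alone. Leaving out 1 library gave 0 to 3 for the difference between sexes and 0 to 2 beside the second list. Without both libraries the log2 fold change over both sexes reversed for Cx3cr1 (-0.0044), P2ry12 (-0.0438), Trem2 (-0.0614), Siglech (-0.0700), Olfml3 (-0.0509), Gpr34 (-0.0544), Laptm5 (-0.0476) and Irf8 (-0.0159), and in females for C1qa (-0.19), Csf1r (-0.23), Slc2a5 (-0.10) and Tmem119 (-0.29). Leaving out 1 library gave over both sexes P2ry12 -0.0048 to 0.31, Trem2 -0.0160 to 0.26, Olfml3 -0.0186 to 0.32 and Laptm5 -0.0133 to 0.27, and in females C1qa -0.21 to 0.24, Csf1r -0.24 to 0.21, Sall1 -0.0096 to 0.0632, Slc2a5 -0.12 to 2.05 and Tmem119 -0.30 to 0.34. The cause was not tested. Same-numbered libraries gave r over 0.1 in 7 of 24 pairs, so the numbers were not taken as pairing. Limma-trend, the border macrophage covariate and leaving out both libraries were chosen after seeing the data. A DESeq2 test was not run.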

Other observations

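Genes that rise in microglia during dissociation of tissue are a list of 22 that holds immediate early genes and cytokines. For BPA over both sexes 22 of 22 were above 0, against 51.2% of all genes. They share their libraries: their mean level was highest in female BPA 1, at 1.19, and female BPA 4, at 0.63. In male BPA libraries that level ran from -0.49 to 0.08 and in controls from -0.77 to 0.30. The median log2 fold change over both sexes was 0.30, and none was called. In females the median was 0.44 and in males 0.13; beside the level of the second myeloid list it was 0.10 over both sexes, with 17 of 22 above 0. Ccl2, a chemokine, had 0.61 ± 0.20 and Cxcl2, another, 0.57 ± 0.22 (SE, limma-voom adjusted p 0.449 and 0.54). Between females and males 22 of 22 were above 0 as well, against 48.9% of all genes, with a median of 0.55. Their part in the members' values was not tested.

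Genes that mark microglia in disease were mixed, 10 of 15 above 0 with a median of 0.09. Their sum was highest in male BPA 2, at 4857 CPM, the library with the highest astrocyte sum, against 3590 CPM in female BPA 1. Which cells these transcripts came from was not tested. Lgals3, a galectin, had 0.65 ± 0.18 (limma-voom adjusted p 0.322). Of the complement genes other than C1q, 9 of 12 tested were above 0, with a median of 0.21, and Cd59a, an inhibitor of the membrane attack complex, had 0.62 ± 0.20 (limma-voom adjusted p 0.424). Signals to microglia made by other cells, such as Cd200, had 5 of 7 above 0 and a median of 0.10. None of these genes was called, and 51.2% of all genes were above 0 for BPA over both sexes.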
